A study of Mus musculus with 8 samples.

Results

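The comparison described here set co-cultured RAW 264.7 cells treated with cortisol and serotonin together against co-cultured RAW 264.7 cells left untreated. It took the array labelled cortisol-serotonin and the array labelled untreated of this line, 2 of the 8 arrays of the series, both at 48 h, and a gene entered it where Cy5 and Cy3 of its probes exceeded the background clearly on both of them. RAW 264.7 is a mouse macrophage-like line, and it had been grown with 3T3-L1, a mouse pre-adipocyte line, in a transwell, in which an insert keeps the cells apart and lets secreted molecules pass. By the methods the RNA came from the lower well, so the RAW 264.7 and 3T3-L1 samples were from separate set-ups. The study asked how the stress hormones act on pre-adipocytes and macrophages grown together, and profiled each line under cortisol-serotonin, cortisol alone, serotonin alone or no treatment, with 1 array per line and condition and each hormone at 100 µM. Every array carried the sample in Cy5 and a common reference RNA in Cy3. With 1 array a side nothing measured the spread between cultures, so the differences below have no replicate check.

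Cortisol, a glucocorticoid, binds the glucocorticoid receptor (Nr3c1), which enters the nucleus, induces genes such as Tsc22d3, Fkbp5 and Per1, and represses many inflammatory genes in macrophages. Serotonin acts through cell-surface receptors, most of them coupled to G proteins, and is taken up by a transporter and broken down by monoamine oxidases. Macrophages owe much of their identity to the transcription factor PU.1 (Spi1), which drives surface molecules such as the integrin chain CD11b (Itgam).

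The text gives log2 ratios of Cy5 over Cy3, and a log2 difference is the ratio on the cortisol-serotonin array minus that on the untreated array, so that 1 means 2-fold higher with cortisol-serotonin. The error beside a difference combines the scanner software's errors of both log ratios and covers the spots, not the cultures. Levels are Cy5 signals after subtraction of the local background, in scanner units, and are compared only within a gene.

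The defining markers of macrophages were present, with 16 of 16 macrophage markers that had a probe well above background on each of the RAW 264.7 arrays, and their Cy5 signals summed to 256300 on the cortisol-serotonin array and 238600 on the untreated array. On each array of 3T3-L1, 13 of these 16 were well above background too, with sums of 14400 to 26930. Of 18 fibroblast markers, 10 were well above background on the cortisol-serotonin array of RAW 264.7 and 12 on its untreated array. Their sums were 3780 and 7640, against 294200 to 415200 on the arrays of 3T3-L1. The RAW 264.7 arrays had 43.7% to 46.0% of their probes above background in Cy5 and Cy3 alike. The array labelled serotonin stood apart, with a median Cy5 signal of 103 units against 51 to 61 on the others of the line, and its log ratios correlated with theirs at 0.893 to 0.906, against 0.945 to 0.966 among the others. The array labelled cortisol-serotonin had 817 spots that the scanner marked as outliers, against 255 on the untreated array. All arrays of RAW 264.7 lay on 1 slide, with the conditions at the positions they had on the slide of 3T3-L1, and treatment cannot be told apart from position. Tsc22d3, Map3k6, Lcn2 and Mt2, which glucocorticoids are known to induce, differed from untreated by 0.62, 0.70, 1.63 and 1.01 on the RAW 264.7 array labelled serotonin, and by -0.29, 0.00, -0.17 and -0.46 on that labelled cortisol. Not all such genes went this way. Of 27 glucocorticoid-induced genes measured on all 4 arrays, 19 had a larger ratio with the label serotonin than with the label cortisol. At least 1.5-fold above untreated were 5 labelled serotonin and 1 labelled cortisol. The share of all genes is not given for these counts. Differences from untreated were wider over all genes too labelled serotonin (SD 0.271) than labelled cortisol (SD 0.17), with 0.638% and 0.0377% 2-fold higher. The list's medians were 0.09 and -0.06, against -0.04 and 0.02 over all genes. Stom, Cebpd and Sesn1 differed by -0.10, -0.33 and -0.13 labelled serotonin and -0.04, -0.40 and -0.11 labelled cortisol. Lcn2 and Mt2 were 3.95 and 3.74 higher on the log2 scale in 3T3-L1 than in RAW 264.7 cells. The 9 of 18 fibroblast markers measured had a median of 0.54 on the array labelled serotonin. Whether these labels are exchanged was not settled, so both are called by their labels below, and the comparison of cortisol-serotonin with untreated does not depend on it.

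Of 13360 genes and unnamed transcripts measured, 24 were at least 2-fold higher with cortisol-serotonin (0.18%) and 10 were at least 2-fold lower (0.0749%). At 1.5-fold, 158 were higher (1.18%) and 132 lower (0.988%). The SD of all differences was 0.23 on the log2 scale, and their median was -0.01. Against the same untreated array, 5 genes were 2-fold higher and 6 lower of 13252 (0.083% in all) on the array labelled cortisol, and 81 higher and 35 lower of 12697 (0.914%) on that labelled serotonin. In limma's fit to all 8 arrays, which assumes that the effects of the hormones add up within a line, 0 of 10995 genes (0%) passed an adjusted p of 0.05, the smallest adjusted p was 0.793, and 259 had an unadjusted p under 0.05. That fit takes as its spread the departure from additivity (2 residual degrees of freedom), so a response of the combination alone counts as spread. When the RAW 264.7 array labelled cortisol or that labelled serotonin was left out, 7 genes passed, with the spread then taken from 3T3-L1 cells alone.

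The largest difference was that of S100a8. It encodes a calcium-binding subunit of calprotectin, which myeloid cells release in inflammation. Its log2 ratio was 1.23 on the cortisol-serotonin array, -0.65 on that labelled cortisol, 1.72 on that labelled serotonin and -0.83 on the untreated array. The gene was thus high on both arrays labelled with serotonin and low on the other two. The difference from untreated was 2.06 (error 0.32), or 4.16-fold, with a Cy5 signal of 2268 units under cortisol-serotonin and 593.5 units without treatment. Its limma adjusted p, 0.793, did not pass.

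Saa3, a serum amyloid A protein that macrophages make in the acute phase, and Lcn2, the iron-sequestering lipocalin 2, were likewise higher on the arrays labelled cortisol-serotonin and serotonin than on the others. Saa3 had log2 ratios of -4.97 under cortisol-serotonin, -6.12 and -4.80 on the arrays labelled cortisol and serotonin, and -6.15 untreated, a difference of 1.18 with an error of 0.81. For Lcn2 the ratios were -1.76, -2.75 and -0.96 on the same treated arrays, against -2.59 untreated. The Lcn2 difference of 0.83 (error 0.42), or 1.78-fold, lay below the 2-fold limit. The antimicrobial peptide gene Camp differed by 0.79 with an error of 0.75. Its Cy5 signals were low, at 51 units under cortisol-serotonin and 44 units untreated, with Cy3 at 2150 and 2683 units. Camp has no value on the single-hormone arrays. Their lists as a whole did not go this way. Of 15 S100 proteins and antimicrobial peptides measured of 23, 5 differed positively and 10 negatively, with a median of -0.08. The 6 acute-phase genes measured of 23 had 3 positive and 3 negative differences and a median of 0.04. S100a8, Saa3, Lcn2 and Camp were all more abundant in 3T3-L1 than in RAW 264.7 cells. On the log2 scale the gap was 3.33 for S100a8, 8.41 for Saa3, 3.95 for Lcn2 and 7.25 for Camp (untreated 3T3-L1 array minus the RAW 264.7 array labelled cortisol). The 9 of 18 fibroblast markers measured had a median difference of 0.40 with cortisol-serotonin and 0.54 on the array labelled serotonin. Cy5 signals summed over all 18 went the other way, at 3780 units with cortisol-serotonin, 5002 labelled serotonin and 7640 untreated. Those sums are not normalised between arrays. Col1a1, Sparc and Thy1 were well above background untreated but not with cortisol-serotonin, and Twist1 the reverse, so the medians leave them out. The part of 3T3-L1 RNA in these values was not tested.

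The promoters of these genes, and that of Itgam among the lower genes, are printed because the text describes these genes array by array and glucocorticoid, C/EBP and PU.1 sites are the motifs usually discussed for them. Each runs from 250 bases before to 50 after the start of the gene, 5′ to 3′ on the gene's strand, from RefSeq (GRCm38.p6). Capitals mark matches on either strand to the C/EBP motif TTNNGCAA or the PU.1 motif GAGGAA. S100a8 lies on the plus strand at chr3:90668821-90669120, Saa3 on the minus strand at chr7:46715627-46715926, Lcn2 on the minus strand at chr2:32387690-32387989 and Itgam on the plus strand at chr7:128062390-128062689.
S100a8: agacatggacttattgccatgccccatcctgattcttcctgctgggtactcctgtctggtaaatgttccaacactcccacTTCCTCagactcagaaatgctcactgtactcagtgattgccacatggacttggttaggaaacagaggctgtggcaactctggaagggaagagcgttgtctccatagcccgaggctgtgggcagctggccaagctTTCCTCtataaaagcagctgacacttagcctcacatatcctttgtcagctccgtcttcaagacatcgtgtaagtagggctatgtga
Saa3: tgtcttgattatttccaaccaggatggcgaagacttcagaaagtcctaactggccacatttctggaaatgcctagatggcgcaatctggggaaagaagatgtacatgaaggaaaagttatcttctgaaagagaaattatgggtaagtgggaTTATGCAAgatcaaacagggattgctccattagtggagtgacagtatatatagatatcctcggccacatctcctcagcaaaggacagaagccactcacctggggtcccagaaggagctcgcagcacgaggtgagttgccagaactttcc
Lcn2: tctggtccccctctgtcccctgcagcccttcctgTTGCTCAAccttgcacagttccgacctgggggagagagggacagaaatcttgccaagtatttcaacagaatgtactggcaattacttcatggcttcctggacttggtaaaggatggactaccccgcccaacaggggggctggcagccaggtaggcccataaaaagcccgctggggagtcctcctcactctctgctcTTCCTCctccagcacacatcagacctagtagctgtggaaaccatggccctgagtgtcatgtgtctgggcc
Itgam: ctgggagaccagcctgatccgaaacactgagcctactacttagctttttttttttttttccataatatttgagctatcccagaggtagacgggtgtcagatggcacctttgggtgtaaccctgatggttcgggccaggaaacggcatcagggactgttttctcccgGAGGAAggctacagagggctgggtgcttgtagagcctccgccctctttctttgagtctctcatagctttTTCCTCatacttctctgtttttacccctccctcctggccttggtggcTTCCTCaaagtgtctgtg
The glucocorticoid response element, searched as the inverted half-sites GNACA and TGTNC with NNN between them, had no match in these 4 windows and one in 0.475% of 32851 promoter windows of 300 bases. The C/EBP motif matched 1 time in Saa3 and 1 time in Lcn2, and stood in 10.8% of all windows. The PU.1 motif matched 3 times in Itgam, 2 times in S100a8 and 1 time in Lcn2, against 28.3% of all windows with a match. These matches are letters in a window and say nothing of binding in these cells.

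Cited1 and Krt23 were also higher both with cortisol-serotonin and on the array labelled serotonin. Cited1 encodes a transcriptional co-activator that binds CBP/p300. Its ratio was 2.22 under cortisol-serotonin, 0.90 labelled cortisol, 2.26 labelled serotonin and 0.88 untreated, a difference of 1.34 (error 0.39), with the arrays in pairs as for S100a8. Krt23, a type I keratin, had ratios of 1.57, 0.03 and 1.06 on these treated arrays and 0.10 untreated, a difference of 1.48 (error 0.41). In 3T3-L1 cells Krt23 differed by 1.57 between cortisol-serotonin and untreated. The cystine transporter gene Slc7a11 differed by 0.74 (error 0.29) under cortisol-serotonin, 0.73 on the array labelled serotonin and 0.18 on that labelled cortisol.

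A further set was highest, or nearly so, on the cortisol-serotonin array and lower on the array labelled serotonin. Arg1, arginase 1, which turns arginine into ornithine and urea and marks alternatively activated macrophages, had ratios of -0.36 under cortisol-serotonin, -0.30 labelled cortisol and -0.88 labelled serotonin, against -1.52 untreated. The untreated array was thus the lowest, and the difference was 1.16 (error 0.34), or 2.24-fold. Malat1, a nuclear long non-coding RNA, had ratios of 0.25 under cortisol-serotonin, -0.36 and -0.87 with the hormones labelled cortisol and serotonin, and -0.85 untreated, a difference of 1.10 (error 0.30). Kcnq1ot1, a non-coding RNA of an imprinted locus, reached 1.73 under cortisol-serotonin, against 0.65 labelled cortisol, -0.23 labelled serotonin and 0.60 untreated. Its difference was 1.13 (error 0.37), and it was 0.61 when dim probes were kept.

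Mreg, melanoregulin, a membrane-trafficking protein, had a ratio of 0.28 with cortisol-serotonin and between -0.76 and -0.63 on the other arrays, which did not overlap it. Slc23a3, a member of the nucleobase and ascorbate transporter family, had 0.27 with cortisol-serotonin and -0.89 to -0.47 elsewhere. Their differences from untreated were 1.04 (error 0.30) and 1.16 (error 0.34). Cy5 of Mreg was 576 units under cortisol-serotonin and 219.5 units untreated, and the signals of Slc23a3 were low, at 134.5 and 65.0 units. Pmepa1, a negative regulator of TGF-beta signalling, differed by 1.09 (error 0.53), or 0.71 with dim probes kept, and Commd2, a COMM domain protein, by 1.08 (error 0.32).

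**Figure D1:**
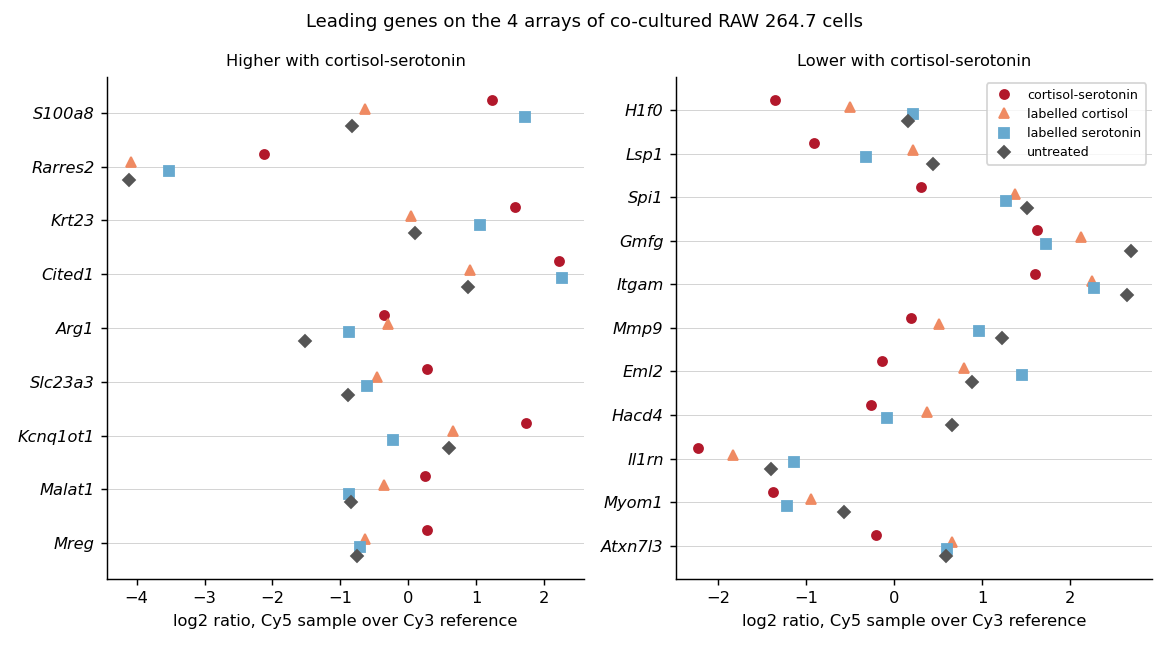
Log2 ratio of Cy5 sample over Cy3 reference on each of the 4 RAW 264.7 arrays for genes named by the rule, with those higher under cortisol-serotonin on the left and those lower on the right. Each point is 1 array; S100a8 and Cited1 fall into pairs of arrays, while Spi1 is 0.30 under cortisol-serotonin and 1.28 to 1.51 on the other arrays.

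Some of the higher genes had errors close to the difference itself. Fstl1, Yap1 and Maged1 differed by 1.17, 1.10 and 1.09 with errors of 1.18, 1.07 and 0.81, and their Cy5 signals were 198, 311.5 and 477.5 units under cortisol-serotonin against 55, 61 and 137.5 units untreated. Of the 24 higher genes, 13 were at least 4-fold higher in 3T3-L1 than in RAW 264.7 cells, and 0 of the 10 lower genes were. At least 4-fold higher in RAW 264.7 cells were 3 of the 10 lower genes and 0 of the 24 higher ones. These counts used the untreated 3T3-L1 array and the RAW 264.7 array labelled cortisol, neither of which entered the comparison. The 767 genes 4-fold higher in 3T3-L1 had a median difference of 0.11 and the widest spread, an SD of 0.33. The 11654 genes in between had -0.01 and an SD of 0.22. For the 750 genes 4-fold higher in RAW 264.7 the median was -0.05 and the SD 0.27.

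The Cy3 channel holds the same reference RNA on both arrays, so its signal at a spot should not move with treatment. After centring, it was over 2-fold apart at 927 of 16297 probes (5.69%). Rarres2, the gene of the chemoattractant chemerin, had a log2 difference of 1.99 (error 0.60), yet its Cy5 signal was 45.5 units under cortisol-serotonin and 115 units untreated, with Cy3 at 724 and 3968.5 units. Its higher ratio thus came with a lower sample signal, and from the Cy5 channel alone the difference was -0.67. Ghrh, growth hormone releasing hormone, differed by 1.26 in the ratio and -0.21 in Cy5 alone, and Flywch2 by 1.24 with Cy3 also over 2-fold apart. With the probes of steady Cy3 alone, 19 of the 24 higher and 8 of the 10 lower genes remained, and 0 others were added. Itgam was lost because its probe of steady Cy3 differed by -0.96, and the other 6 because Cy3 at their spots was over 2-fold apart.

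**Figure D2:**
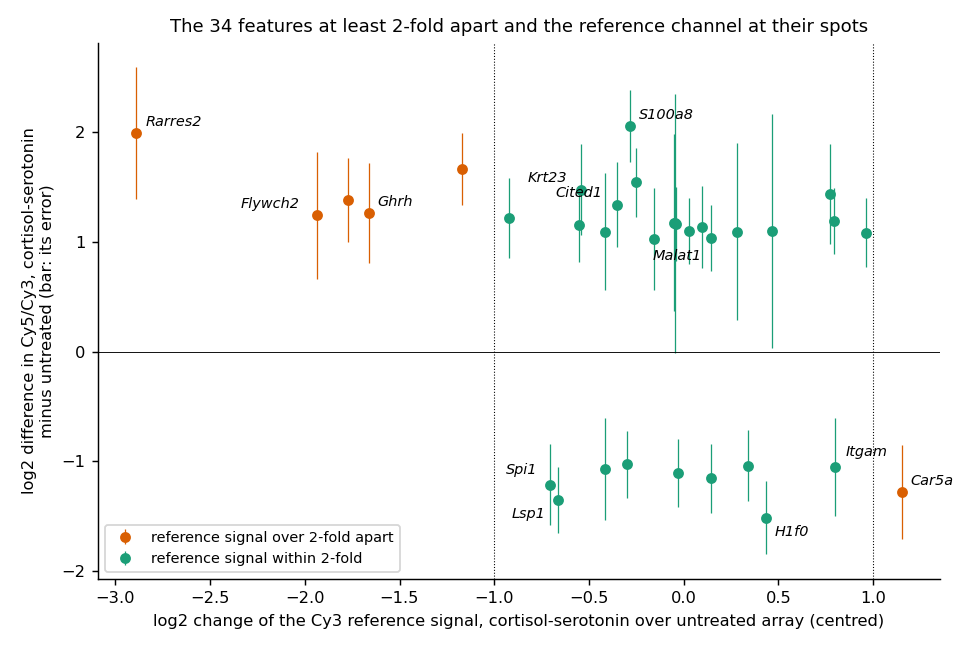
Log2 difference in Cy5/Cy3 (cortisol-serotonin minus untreated, bar its error) of the 34 genes and transcripts at least 2-fold apart, against the centred log2 change of the Cy3 reference signal at their spots. Points between the dotted lines, S100a8, Cited1, Spi1 and Lsp1 among them, had a reference signal within 2-fold, and Rarres2, Ghrh, Flywch2 and Car5a lay outside.

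Genes that define the macrophage were among those lower under cortisol-serotonin. Spi1, the gene of PU.1, had log2 ratios of 0.30 under cortisol-serotonin, 1.37 labelled cortisol and 1.28 labelled serotonin, against 1.51 untreated. The other 3 arrays lay close together, and the cortisol-serotonin array was below the lowest of them, with a log2 difference of -0.97. The difference from untreated was -1.21 (error 0.37), with Cy5 at 137 units under cortisol-serotonin and 609 units untreated and Cy3 at 258 and 311.5 units. Itgam had ratios of 1.60, 2.25 and 2.28 on the arrays labelled cortisol-serotonin, cortisol and serotonin, and 2.65 untreated, a difference of -1.05 (error 0.45). One of its 2 probes had Cy3 within 2-fold and differed by -0.96, and the other, with Cy3 2.01 higher on the log2 scale, by -1.14. Its sample signals at the latter probe ran the other way, at 2478 units under cortisol-serotonin and 1274 units untreated, and over both probes the Cy5 channel alone gave -0.24. With dim probes kept the Itgam difference was -0.83.

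Of 17 macrophage markers listed, 16 were measured, 13 with a negative and 3 with a positive difference, against 51.2% negative over all genes. Their median was -0.31, against -0.01 over all genes, and stayed between -0.40 and -0.24 under the other processing settings. Besides Spi1 and Itgam, Laptm5, a lysosomal membrane protein of blood cells, differed by -0.69 (error 0.35) and Mpeg1, the pore-forming perforin-2, by -0.65 (error 0.34). Ptprc (CD45) differed by -0.46 (error 0.33). Csf1r, the receptor of the macrophage growth factor, differed by -0.38 and Cd14, the lipopolysaccharide co-receptor, by 0.26, within their errors of 0.39 and 0.37. The list's median was -0.08 for the array labelled cortisol over untreated and -0.04 for that labelled serotonin. The summed Cy5 signal of the list, given above, did not go the same way, and those sums are not normalised between arrays.

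Lsp1, an actin-binding protein of leukocytes, had ratios of -0.91 under cortisol-serotonin, 0.21 labelled cortisol and -0.32 labelled serotonin, and 0.44 untreated, a difference of -1.35 (error 0.30), with Cy5 at 1603 units under cortisol-serotonin and 6844 units untreated. Gmfg, glia maturation factor gamma, which remodels actin branches in blood cells, had 1.62, 2.12 and 1.73 on these treated arrays against 2.69 untreated. It differed by -1.07 (error 0.47), and by -0.53 when dim probes were kept. Mmp9, the secreted gelatinase, had ratios of 0.19 under cortisol-serotonin, 0.51 labelled cortisol and 0.96 labelled serotonin, and 1.22 untreated. Its difference was -1.04 (error 0.32), the untreated array was the highest, and in 3T3-L1 cells it differed by -1.53. Il1rn, the antagonist of the interleukin-1 receptor, differed by -0.84 (error 0.39), with the array labelled serotonin the highest at -1.14 and cortisol-serotonin the lowest at -2.23.

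H1f0, the linker histone of resting and differentiated cells, had the largest negative difference of those 2-fold lower. Its ratios were -1.36 under cortisol-serotonin, -0.50 labelled cortisol, 0.22 labelled serotonin and 0.16 untreated. The difference was -1.51 (error 0.34), at low Cy5 signals of 89.5 units under cortisol-serotonin and 234 units untreated. Eml2, a microtubule-associated protein, had -0.14 under cortisol-serotonin and 0.79 to 1.46 on the other arrays, and differed from untreated by -1.03 (error 0.30). Hmox1, heme oxygenase 1, stood at -0.96 under cortisol-serotonin, against -0.06, 0.04 and -0.10 on the arrays labelled cortisol, serotonin and untreated, which lay close together. It differed by -0.86 (error 0.30), at bright signals of 12362 units under cortisol-serotonin and 18137 units untreated. P4ha2, a collagen prolyl hydroxylase subunit that hypoxia induces, differed by -0.90 (error 0.46) and Ocstamp, which takes part in osteoclast fusion, by -0.94 (error 0.39).

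The members closest to the 2-fold limit were, on the higher side, Mreg at 1.04 and Zfp566 at 1.03 inside it and Capn11 at 0.998 outside. On the lower side Mmp9 at -1.04 and Eml2 at -1.03 lay inside it and the transcript of probe A_55_P2097820 at -0.997 outside.

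Gene lists of the pathways of each hormone gave small medians. Of 40 glucocorticoid-induced genes 28 were measured, with 14 positive and 14 negative differences, 0 of them 2-fold and 1 (Lcn2) 1.5-fold. Their median was -0.02 under cortisol-serotonin, -0.06 on the array labelled cortisol and 0.09 on that labelled serotonin, and in 3T3-L1 cells under cortisol-serotonin it was 0.24. Tsc22d3, the glucocorticoid-induced leucine zipper GILZ, differed by 0.52 (error 0.29), against -0.29 labelled cortisol and 0.62 labelled serotonin. Map3k6, a kinase of the MAP kinase cascade, followed the same order at 0.58 (error 0.30), 0.00 and 0.70. The FKBP51 gene Fkbp5 differed by 0.01 in RAW 264.7 and by 1.45 in 3T3-L1 cells under cortisol-serotonin. The clock gene Per1 differed by -0.29 (error 0.31). Stom and Cebpd, at -0.54 (error 0.31) and -0.56 (error 0.45), were the lowest of the list.

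The glucocorticoid receptor gene Nr3c1 differed by -0.01 (error 0.31), and 14 of 17 corticosteroid receptors and cofactors were measured, none 1.5-fold apart. Of 14 serotonin receptors 0 passed the background limit in both channels on both arrays, and of 17 genes of serotonin synthesis, transport and breakdown Aanat alone did, at 0.18 (error 0.32). No difference is given for the serotonin receptors for that reason.

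Pro-inflammatory cytokines, chemokine ligands and interferon-stimulated genes had medians close to that of all genes. The 9 pro-inflammatory cytokines measured of 22 had a median of -0.04, with Tnf at 0.06 (error 0.34) and 0 of them 1.5-fold apart. The 15 chemokine ligands measured of 30 had a median of 0.08. Ccl2, the monocyte chemoattractant MCP-1, differed by -0.69 (error 0.42), against 0.16 labelled cortisol and -0.91 labelled serotonin. The 29 interferon-stimulated genes measured of 39 had a median of -0.05. Lower medians were found for 2 further lists. Anti-inflammatory cytokines and antagonists, 14 measured of 19, had -0.12, with 11 negative (78.6%, against 51.2% over all genes). Chemokine and chemoattractant receptors, 6 measured of 19, had -0.19, with 4 negative and 2 positive. Of antigen presentation genes, H2-Eb1 and Cd74, a class II chain and its invariant chain, differed by -0.62 (error 0.35) and -0.53 (error 0.34), and Erap1, an aminopeptidase that trims peptides, by 0.80 (error 0.40). The 21 measured members of that list had a median of -0.09.

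Alternative activation genes had a median of 0.24 over 12 measured of 23, with Arg1 2-fold higher, the scavenger receptor Cd36 at 0.73 (error 0.65) and the zinc finger transcription factor gene Egr2 at 0.54 (error 0.34). The median was 0.06 when dim probes were kept and 0.11 from Cy5 alone, and the members Fn1, Il4ra and Pparg were 9.72, 4.27 and 4.25 higher on the log2 scale in 3T3-L1 than in RAW 264.7 cells. Of 11 classical activation genes measured of 23 the median was 0.08 and 0 were 1.5-fold apart. Among 28 macrophage transcription factors measured, Nr4a2, an orphan nuclear receptor induced at once by many stimuli, differed by 0.66 (error 0.31), against -0.08 labelled cortisol and 0.07 labelled serotonin, and Nfatc1 by 0.64 (error 0.37) as the mean of probes that disagreed, at 1.36 and -0.09. The fibroblast markers, of which 9 of 18 were measured, had a median of 0.40, and collagens and matrix genes 0.35 over 16 of 28. Of these 16 differences 4 were larger than their errors, against 1672 of 13360 over all genes. With dim probes kept, the medians of these 2 lists were 0.19 and 0.11. The summed Cy5 signal of the fibroblast markers, given above, did not go the same way as their median.

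Unfolded protein response genes and chaperones of the endoplasmic reticulum had a median of -0.22 over 20 measured of 21. Of these 20, 18 were negative, against 51.2% over all genes, and the median was 0.00 when the Cy5 channel was used alone. Edem1 and Sel1l, which take part in the disposal of misfolded proteins, were the lowest at -0.48 (error 0.32) and -0.47 (error 0.33). Glycolysis and hypoxia-induced genes had a median of -0.14 over 29 of 32 (0.06 from Cy5 alone) and 0.14 on each of the arrays labelled cortisol and serotonin over untreated. Lysosomal genes had a median of -0.11 over 33 of 37 (0.05 from Cy5 alone), cell cycle genes 0.08 over 42 of 46 and reference genes -0.03 over 17 of 18 (0.41 from Cy5 alone).

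**Figure D3:**
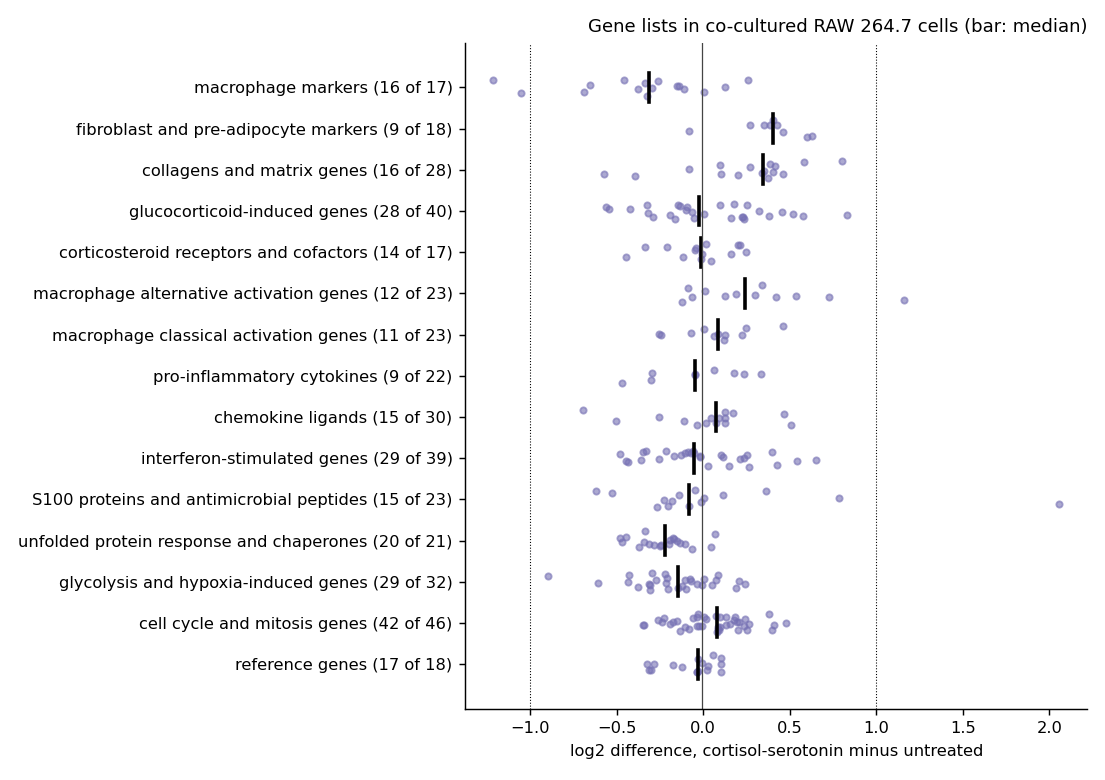
Log2 difference between cortisol-serotonin and untreated of each measured gene of 15 lists, with the list's median as a bar and the number measured of the number listed in brackets. Macrophage markers had a median of -0.31 and fibroblast markers 0.40, and the point beyond 2.0 is S100a8.

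The single-hormone arrays allowed the combination to be set against each hormone. Against the array labelled cortisol, cortisol-serotonin had 26 genes 2-fold higher (0.202%) and 7 lower (0.0544%) of 12861. Against the array labelled serotonin, 64 were higher (0.517%) and 66 lower (0.533%) of 12389. Of 12064 genes measured on all 4 arrays, 5 (0.0414%) were at least 2-fold above each of the others on the cortisol-serotonin array and 0 below. They were Rarres2, Kcnq1ot1, the zinc finger gene Zfp566 and the transcripts AK167004 and ENSMUST00000082411, with gaps to the next array of 1.40, 1.08, 1.03, 1.44 and 1.02. The same count was 1 for the array labelled cortisol, 33 for that labelled serotonin and 1 for the untreated array. Of these 5, Rarres2 had a lower Cy5 signal with cortisol-serotonin than untreated, as given above. From Cy5 alone it differed from untreated by -0.67, and Kcnq1ot1 differed by 0.61 with dim probes kept. Below that limit, Spi1, Eml2 and P4ha2 were lower on the cortisol-serotonin array than on each of the others with differences from the next array of -0.97, -0.93 and -0.90.

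The difference between cortisol-serotonin and the array labelled cortisol had a Pearson correlation of 0.0671 and a Spearman correlation of 0.0412 with the difference between the array labelled serotonin and untreated, over 12064 genes. For cortisol-serotonin minus the array labelled serotonin, against labelled cortisol minus untreated, these were 0.0099 and 0.0296. The points share the slide, the reference and the base composition of their probes, and genes are not independent replicates. The combination departed from the sum of the single-hormone differences by at least 2-fold for 85 genes above it (0.705%) and 84 below it (0.696%), with an SD of 0.337. Among genes named in RefSeq the farthest above were Hap1 at 3.53 and Pigt at 2.24, and the farthest below Fgfr1 at -2.96 and Plcd1 at -2.60. Under cortisol-serotonin itself Hap1, Fgfr1 and Plcd1 differed from untreated by only -0.10, -0.02 and -0.03, so that these departures lay in the single-hormone arrays. Kcnq1ot1 departed by 1.91.

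**Figure D4:**
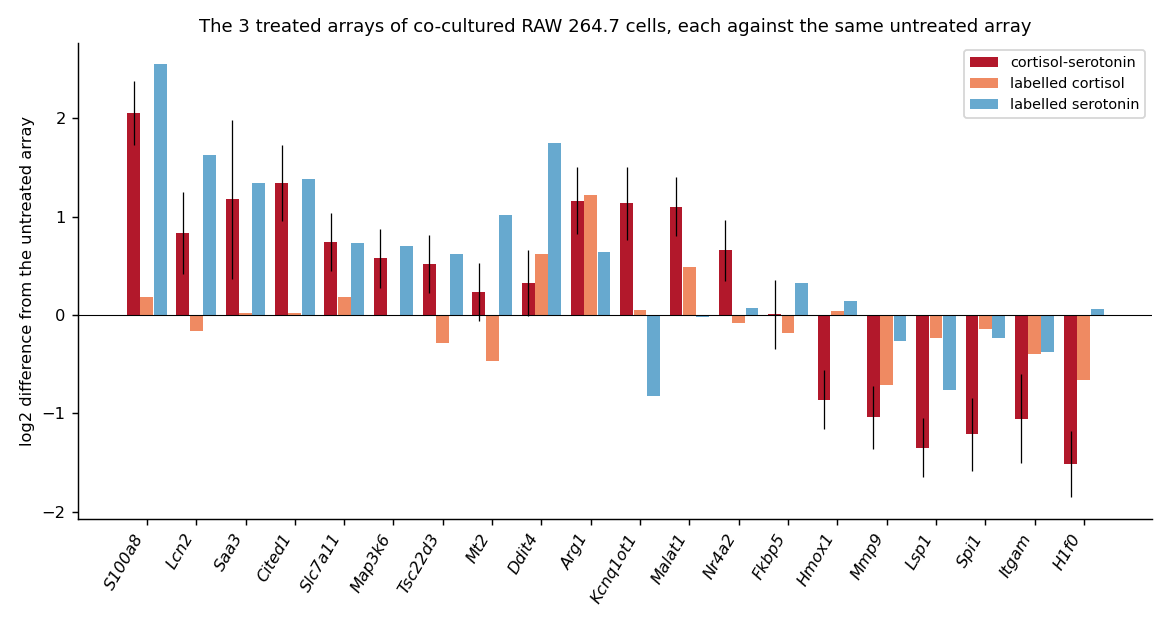
Log2 difference from the shared untreated array for cortisol-serotonin (with its error), the array labelled cortisol and the array labelled serotonin, for 20 genes. S100a8, at 2.06, and Cited1, at 1.34, are near the values labelled serotonin, while Hmox1 and Spi1 are lower under cortisol-serotonin than with either single label.

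A gene whose sample signal was well above background on only 1 of these arrays has a bound in place of a fold, computed on Cy5 against the higher of its own dim signal and the lowest signal well above background. There were 649 such genes seen with cortisol-serotonin alone, 65 with a bound of at least 2-fold, and 1096 seen untreated alone, 131 with such a bound. Myo1g, a myosin of blood cells, headed the latter at least 169-fold lower, with 7.5 units under cortisol-serotonin and 14949 units untreated. Its spot and those of the next 7 (Sf3b2, Foxl2, Eif2b4, Gid4, Xpo5, Krit1 and Cdk2) had Cy3 signals 25.8-fold to 286-fold lower on the cortisol-serotonin array too, so the reference signal was low at the same spots. Where Cy3 was within 2-fold, 7 of the 65 and 1 of the 131 bounds were left. Optn (optineurin, an autophagy receptor) was at least 2.51-fold higher, at 127 units under cortisol-serotonin and 17 units untreated. Its Cy3, at 172 and 103 units, was not well above background on both arrays, so how steady it was is uncertain. Npy1r, a neuropeptide Y receptor, was at least 2.17-fold higher and Pappa, a metalloproteinase that cleaves IGF-binding proteins, at least 2.15-fold lower. Npy1r and Pappa had Cy3 well above background on both arrays.

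In 3T3-L1 cells, co-cultured in the other set-up, 105 genes were 2-fold higher and 86 lower with cortisol-serotonin than untreated, of 13400 (1.43% in all). Of the 34 genes and transcripts 2-fold apart in RAW 264.7, 28 were measured in both lines, 15 of them with the same sign, and 3 (Krt23, Mmp9 and the transcript of probe A_55_P1998811) were 2-fold apart the same way in both. Over 12037 genes the correlation of the cortisol-serotonin differences of the lines was -0.0347 (Pearson) and -0.0749 (Spearman). In limma's fit the difference between the lines passed for 0 of 10995 genes (smallest adjusted p 0.546, with 573 at an unadjusted p under 0.05).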

How the data were processed

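Co-cultured RAW 264.7 and 3T3-L1 cells were profiled on 2-colour Agilent 4x44k arrays, sample in Cy5 and common reference in Cy3 (pooled untreated cells grown alone by the methods, a mix of all samples by the labels; it cancels between arrays). The authors extracted the signals from the images with Feature Extraction, version 10.5.1.1 by the submitters' processing notes. The methods name a later version. The deposited scanner files hold median signal and background intensity of both channels, processed signal intensities, the log10 ratio with its error, and flags for spots well above background, saturated (0) or outlying. The deposited series matrix repeats the log10 ratio and was not used in a comparison.

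Background was corrected by normexp (offset 50) and ratios normalised by loess within arrays in limma 3.58.1 (R 4.3.3). Control and outlier spots were left out and spots averaged per probe. Of 39429 probes, 27502 (69.8%) matched 20882 genes of a RefSeq table (GRCm38.p6), and others kept the file's name. A gene is the mean of its probes. Over 202 probes printed in 10 spots the median SD of the log2 difference was 0.0556. The fits were tested on simulated data. The named genes are the 12 largest rises and falls past 2 times their error and 2-fold by the processed signals as well, up to 5 members of each of 42 lists, genes apart from all other arrays, the largest bounds and the largest departures from additivity; Fstl1, Yap1, Maged1, Flywch2, Capn11, Tnf, Csf1r, Cd14, Fkbp5, Optn, Npy1r and Pappa were chosen after their values were seen. Members and lists were chosen with earlier results of these data known.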

Additional observations from a re-analysis of the deposited data

How the results depend on the processing

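Against the 34 genes 2-fold apart (24 higher, 10 lower with cortisol-serotonin), Feature Extraction's processed signals gave 122 (88 higher, 34 lower), the Cy5 channel alone 708 (494 and 214), no filter on dim probes 125 (97 and 28), a normexp offset of 16 gave 55 (42 and 13) and a 1.5-fold limit 290. Median centring gave 35 with another split (19 higher, 16 lower) and an all-gene median of -0.11. For cortisol-serotonin over the array labelled cortisol (33 genes), processed signals gave 124, Cy5 alone 1005 and no filter 164; over that labelled serotonin (130 genes), 460, 1625 and 431, and median centring split the genes into 43 higher and 90 lower. The 5 genes apart from all other arrays became 15 with processed signals, 8 with median centring, 392 with Cy5 alone and 37 with no filter. In limma, 0 genes became 7 (6 higher, 1 lower) without the RAW 264.7 array labelled cortisol and 7 without that labelled serotonin. With Cy5 alone, Rarres2 reversed to -0.67 and Ghrh to -0.21. The cause of these shifts was not tested.

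Of the 24 higher and 10 lower genes, 23 and 10 were kept with processed signals, 12 and 5 with Cy5 alone, and 19 and 8 with probes of steady Cy3, an alternative chosen after seeing the data. Of the other values, 1736 stayed within their error or spread and 94 did not. The number of arrays, 1 per condition, limits the precision. No paired analysis was possible because each condition has 1 array per line and the labels carry no replicate numbers.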

Other observations

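Histone genes, chosen after their values were seen, had mostly negative differences between cortisol-serotonin and untreated RAW 264.7 cells. Of 34 histone genes measured by symbol, 28 were negative, 6 were at least 1.5-fold lower and 0 at least 1.5-fold higher, with a median of -0.14. Over all genes, 51.2% were negative, 0.988% at least 1.5-fold lower and 1.18% at least 1.5-fold higher. Against untreated, 22 of 28 histone genes were negative on the array labelled cortisol and 21 of 28 on that labelled serotonin, with medians of -0.11 and -0.13, and in 3T3-L1 cells under cortisol-serotonin 22 of 27 were negative, with a median of -0.31. Besides H1f0, the lowest were H1f8 at -0.83 (error 0.45) and H4f16 at -0.75 (error 0.33). The linker histone H1f5 followed at -0.74 (error 0.37) and the core histone H4c4 at -0.71 (error 0.46). The highest value was 0.34 (error 0.47), of H2bc8. Members of the family share sequence, so their probes can share signal.

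Among proteins of iron and redox metabolism, Hmox1 and Slc7a11 went opposite ways with cortisol-serotonin, at -0.86 and 0.74, while Txnrd1, thioredoxin reductase 1, differed by 0.42 (error 0.29). The 26 NRF2 targets measured of 29 had a median of -0.04.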
